A study of Mus musculus with 12 samples.

Results

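The 77 genes described here carry the symbols Mrpl and Mrps, given to proteins of the large and the small subunit of the mitochondrial ribosome. Subunits are given by symbol, which departs from the place of the protein for 3 genes named below. They were the rows of the count table whose Ensembl ID maps to such a symbol followed by a number, with at least 60 counts summed over all mice and without genes named as pseudogenes. Of 21959 rows, 78 had such a symbol. Mrpl53 had 0 counts in every mouse and was left out. Its gene model of 695 bases lies wholly inside that of Gm42688 on the same strand. This left 48 large-subunit and 29 small-subunit genes, and all 77 passed the filter on low counts.

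The data are poly-A RNA sequencing of heart ventricles from 12 males on a chow diet at an age of 7 weeks. The cardiac knockout group (Vps13c-cKO) had 6 mice with Vps13c, the gene of a lipid transfer protein between organelle membranes, knocked out in the heart. The wild-type group (WT) also had 6. Per the titles each sample is a separate mouse. Neither the driver that restricted the knockout to the heart nor whether WT mice carried it is given in the sources used here. Libraries held 12484523 to 15562942 counts, of which each gene of the set took between 337 and 34568 over all mice. Vps13c itself averaged 18.2 ± 1.58 CPM (counts scaled to library size) in Vps13c-cKO ventricles and 61.9 ± 4.85 CPM in WT ventricles (SD, n = 6 each). All 12 listed cardiomyocyte marker genes were detected, and their summed level was 63424 to 68389 CPM in Vps13c-cKO mice and 64955 to 70661 CPM in WT mice. WT mouse 4 stood apart in atrial muscle genes. Myl4, Myl7 and Sln summed to 0.881 to 2.54 CPM in Vps13c-cKO mice, 0.509 to 1.46 CPM in 5 WT mice and 68.8 CPM in that mouse, so results are also given without it.

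Mitochondria hold their own ribosomes, which make only the few respiratory chain proteins that the mitochondrial genome encodes. Their RNA comes from the mitochondrial genome, but every one of their proteins is encoded in the nucleus, made in the cytosol and imported. The small subunit reads the messenger RNA, and the large subunit joins the amino acids and hands the new protein to the inner membrane. Many of the proteins have a counterpart in bacteria, and others are found only in mitochondria. In heart muscle, which depends on respiration, inherited faults in several of these genes cause cardiomyopathy in humans.

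Most mitochondrial ribosomal protein genes showed small differences between the genotypes, and no common direction. In Vps13c-cKO ventricles 1 of the 77 genes was higher and 7 were lower at an adjusted p under 0.05 (edgeR quasi-likelihood test with Benjamini-Hochberg adjustment over all 12384 tested genes). These 8 genes are 10.4% of the set, beside 10.7% of all tested genes (5.65% higher and 5.1% lower). Among the tested genes whose mean level fell inside the range of the set, 10.2% were called. The median log2 fold change (Vps13c-cKO over WT) was -0.0038 over the 77 genes and 2.8e-05 over all tested genes. It was above 0 for 37 genes and below 0 for 40. Without WT mouse 4, 2 genes were higher and 4 lower, 7.79% of the set beside 11.2% of all genes tested in that fit. Mrpl23, Mrps35, Mrps23, Mrpl39 and Mrpl17 were called there too. Mrpl37, Mrpl46 and Mrpl48 missed the threshold (edgeR adjusted p = 0.0585, 0.0666 and 0.0591).

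Calls were few in either subunit. In the large subunit 0 genes rose and 6 fell, namely Mrpl23, Mrpl39, Mrpl17, Mrpl37, Mrpl46 and Mrpl48. In the small subunit Mrps23 rose and Mrps35 fell. The share called was 12.5% of the large and 6.90% of the small subunit, beside 10.7% of all tested genes (5.65% higher and 5.1% lower). A difference between the subunits was not tested. Outside chromosome 7, 2 of 44 large-subunit and 2 of 27 small-subunit genes were called. In the fit without WT mouse 4, 1 large-subunit gene rose and 3 fell, and 1 small-subunit gene rose and 1 fell. The medians were close, at a log2 fold change of -0.0021 for the large and -0.0063 for the small subunit.

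**Figure D1:**
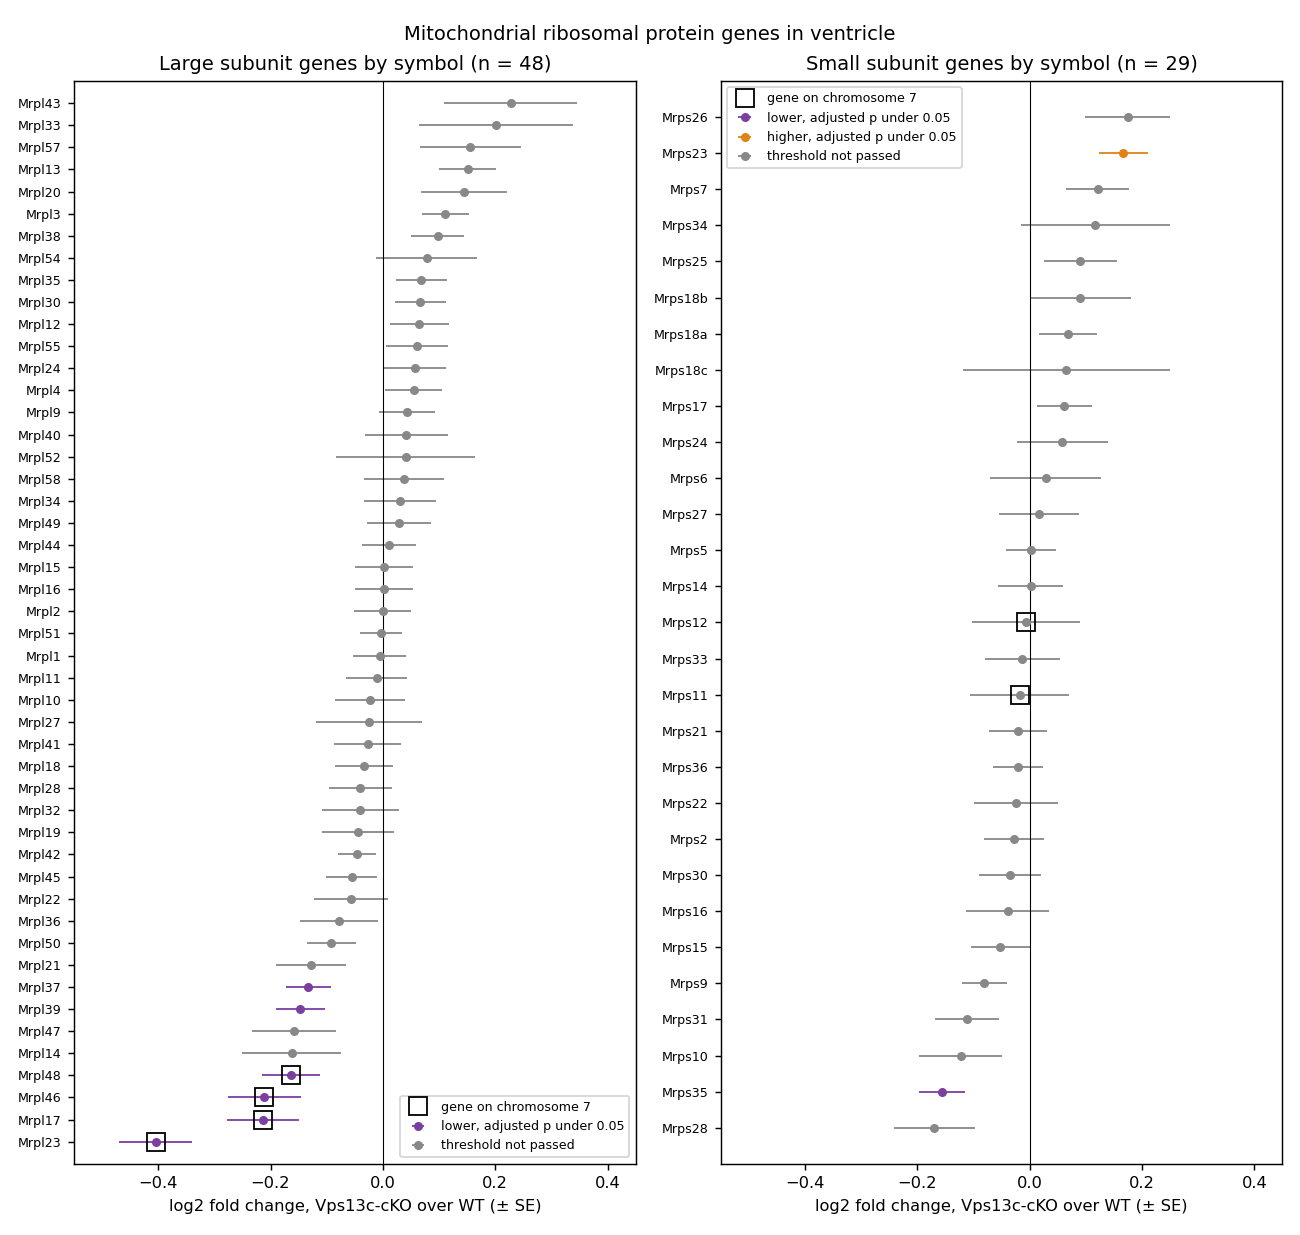
Log2 fold change of each gene in Vps13c-cKO over WT ventricles (horizontal axis, bars are ± SE), with 48 large-subunit genes on the left and 29 small-subunit genes on the right, ordered by value. Purple and orange points passed an adjusted p of 0.05, and open squares mark genes on chromosome 7, which hold the 4 lowest values of the large subunit.

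Summed over genes, neither subunit stood apart. The large subunit amounted to 1828 ± 35.8 CPM in Vps13c-cKO and 1845 ± 55.9 CPM in WT ventricles, and the small subunit to 853 ± 15.6 CPM in Vps13c-cKO and 847 ± 29.5 CPM in WT ventricles (SD, n = 6 each). The ratio of large to small was 2.14 ± 0.0154 in Vps13c-cKO mice, with a range of 2.13 to 2.16, and 2.18 ± 0.0334 in WT mice, with a range of 2.12 to 2.22. The groups overlapped through WT mouse 6, which had the lowest ratio of all 12 mice, while the other 5 WT mice lay above every Vps13c-cKO mouse. Without WT mouse 4 the WT ratio was 2.17 ± 0.0313 (SD, n = 5). As sums of CPM are led by a few abundant genes, the ratio counts transcripts and not ribosomes. The 77 genes took 0.268% ± 0.00604 of all counts in Vps13c-cKO and 0.269% ± 0.00654 in WT mice. In bulk ventricle, fewer cells of a type and less RNA per cell cannot be told apart.

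**Figure D2:**
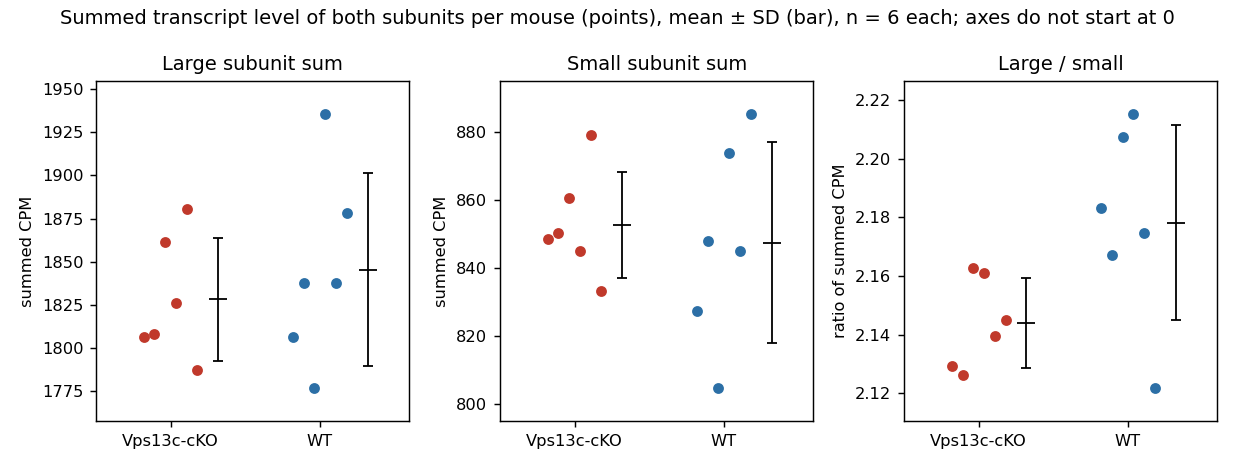
Summed CPM of the large-subunit genes, of the small-subunit genes and the ratio of both (vertical axes, which do not start at 0), with a point per mouse and a bar for mean ± SD, n = 6 in each genotype. Vps13c-cKO and WT mice overlap in all 3 panels, and the ratio of large to small is 2.13 to 2.16 in Vps13c-cKO and 2.12 to 2.22 in WT mice.

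Mrpl23 (ENSMUSG00000037772, chromosome 7) showed the steepest fall of the set. It encodes uL23m, a protein of bacterial descent at the exit of the tunnel through which the new protein leaves the large subunit. Its lowest, median and highest levels were 16.4, 19.97 and 22.2 CPM in Vps13c-cKO mice, and 23.8, 26.5 and 27.7 CPM in WT mice. Every Vps13c-cKO mouse was thus below every WT mouse. By the fitted fold change Mrpl23 fell by 24.5%. The log2 fold change was -0.40 ± 0.07 (SE; edgeR adjusted p = 0.00026). The processed pseudogene Mrpl23-ps1 is 100% identical over 540 bases, so the count of Mrpl23 is uncertain to the extent that reads were shared with it.

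Mrpl17 (ENSMUSG00000030879, chromosome 7), the other called gene with a bacterial counterpart, encodes bL17m of the large subunit. Its lowest, median and highest levels were 20.6, 21.7 and 23.8 CPM in Vps13c-cKO mice, and 23.1, 25.1 and 29.7 CPM in WT mice. In 5 of the 6 Vps13c-cKO mice the level was below that of every WT mouse, in mouse 1 by a narrow margin. The log2 fold change was -0.21 ± 0.06 (SE; edgeR adjusted p = 0.0341).

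Mrpl46 (ENSMUSG00000030612) and Mrpl48 (ENSMUSG00000030706), both on chromosome 7, encode proteins of the central protuberance, the knob of the large subunit that faces the small one. Mrpl46 had 16.2, 17.4 and 19.6 CPM (lowest, median and highest) in Vps13c-cKO mice, against 19.0, 19.8 and 22.8 CPM in WT mice. Mrpl48 had 32.7, 34.2 and 38.7 CPM in Vps13c-cKO mice, against 35.7, 38.9 and 41.7 CPM in WT mice. For each gene 5 of the 6 Vps13c-cKO mice lay below all WT mice, and the sixth was inside the WT range. The log2 fold changes were -0.21 ± 0.07 and -0.16 ± 0.05 (SE; edgeR adjusted p = 0.0404 and 0.0434). Exons of Mrpl48 share 708 bases with Rab6a on the opposite strand, and its pseudogene Mrpl48-ps is 98.1% identical over 636 bases.

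Mrpl37 (ENSMUSG00000028622, chromosome 4) and Mrpl39 (ENSMUSG00000022889, chromosome 16) encode large-subunit proteins with no bacterial counterpart, and both were expressed at higher CPM than the 4 chromosome 7 genes. Mrpl37 had 52.8, 57.1 and 59.6 CPM (lowest, median and highest) in Vps13c-cKO mice, against 60.6, 62.4 and 63.9 CPM in WT mice. Mrpl39 had 50.6, 55.1 and 57.4 CPM in Vps13c-cKO mice, against 57.2, 60.3 and 64.1 CPM in WT mice. The groups did not overlap for Mrpl37, and 1 Vps13c-cKO mouse was inside the WT range for Mrpl39. By the fitted fold change Mrpl37 fell by 8.82% and Mrpl39 fell by 9.67%, with log2 fold changes of -0.13 ± 0.04 and -0.15 ± 0.04 (SE; edgeR adjusted p = 0.0341 and 0.0338).

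In the small subunit, Mrps35 (ENSMUSG00000040112, chromosome 6), a protein found only in the mitochondrial ribosome, had 52.9, 54.6 and 58.5 CPM (lowest, median and highest) in Vps13c-cKO mice, against 58.8, 61.4 and 65.4 CPM in WT mice. The groups did not overlap, although the highest Vps13c-cKO mouse and the lowest WT mouse differed by less than 1 CPM. The log2 fold change was -0.16 ± 0.04 (SE; edgeR adjusted p = 0.0143). Mrps23 (ENSMUSG00000023723, chromosome 11), likewise without a bacterial counterpart, was the only gene called higher. It had 115, 127 and 133 CPM in Vps13c-cKO mice, against 103, 112 and 123 CPM in WT mice, and 5 of the 6 Vps13c-cKO mice were above all WT mice. The log2 fold change was 0.17 ± 0.04 (SE; edgeR adjusted p = 0.0165), a fitted rise of 12.3%.

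**Figure D3:**
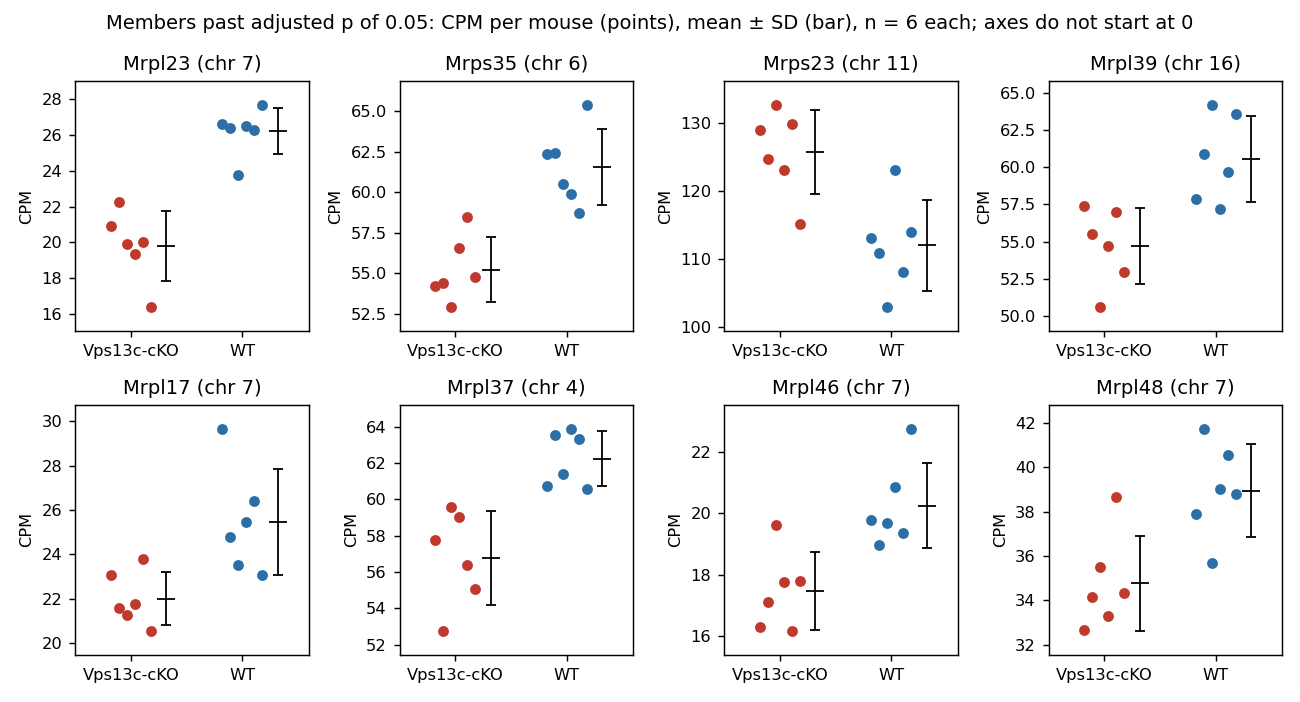
CPM of the 8 genes past the threshold (vertical axes, which do not start at 0), with a point per mouse and a bar for mean ± SD, n = 6 in each genotype. In Mrpl23, Mrps35 and Mrpl37 all Vps13c-cKO mice lie below all WT mice, in Mrps23 5 of 6 lie above, and in the other 4 genes 5 of 6 lie below.

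Genotype groups that did not overlap were seen in 3 of the 77 genes, beside 4.93% of all tested genes. The calls differed in how well they held when a mouse was left out. Mrpl23, Mrps35 and Mrps23 stayed past the threshold whichever mouse was left out, with adjusted p of at most 0.00094, 0.0378 and 0.0444 by edgeR. The other 5 were each lost in at least 6 of the 12 fits without a mouse, with adjusted p of up to 0.106. Of the 7 genes called lower, 5 were called without Vps13c-cKO mouse 1 or 5 or without WT mouse 1 or 3, and 4 without Vps13c-cKO mouse 3 or without WT mouse 2, 4, 5 or 6. The number was 3 without Vps13c-cKO mouse 2 or 4, and 2 without Vps13c-cKO mouse 6. In the large subunit between 1 and 4 genes were called lower.

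Of 30 genes with no bacterial counterpart 1 rose and 5 fell, and of 46 genes with one 0 rose and 2 fell. These counts, 6 of 30 and 2 of 46 called beside 10.7% of all tested genes, rest on few genes. Without Vps13c-cKO mouse 6 they were 2 and 1 called genes, and without WT mouse 4 they were 3 and 3. The difference in share was not tested. Some symbols do not match the place of the protein. Mrps30 and Mrps18a encode proteins of the large subunit despite their names, and Mrps36 encodes a part of the alpha-ketoglutarate dehydrogenase complex. Their log2 fold changes were -0.03 ± 0.06, 0.07 ± 0.05 and -0.02 ± 0.04 (SE), none past the threshold. Sorted by place, the large subunit had 6 of 50 genes called and the small 2 of 26.

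Chromosome 7 carried 6 of the 77 genes and 4 of the 7 that fell. Mrpl23, Mrpl17, Mrpl46 and Mrpl48 were lower there, which is 4 of 6 genes, beside 8.9% of the tested chromosome 7 genes lower and 18.5% called in either direction. This count was lower in every fit that left out a mouse, whichever mouse it was. It was 1 without Vps13c-cKO mouse 2, 4 or 6, and 2 without Vps13c-cKO mouse 1 or 3 or without WT mouse 1, 4, 5 or 6. It was 3 without Vps13c-cKO mouse 5 or without WT mouse 2 or 3. Mrpl23 was called in each of these fits. The remaining pair, Mrps11 and Mrps12, had log2 fold changes of -0.02 ± 0.09 and -0.01 ± 0.10 (SE). On the other chromosomes 1 of 71 genes rose and 3 fell, 5.63% in all, beside 10.1% of the tested genes of those chromosomes (4.78% lower). The large subunit had 2 of 44 genes called there and the small 2 of 27. All 6 chromosome 7 genes had values below 0, with a median log2 fold change of -0.19, while the median of the other 71 was 0.0023.

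The 4 genes lay apart from each other. In the order of the 955 tested chromosome 7 genes, Mrpl46 was number 476, Mrpl48 number 596, Mrpl17 number 650 and Mrpl23 number 935. The 3 tested genes on either side of each were read for comparison, a choice made after their values were seen. Mrpl23 lay beside Tnnt3, which encodes fast skeletal troponin T and averaged 4.95 ± 1.09 CPM in Vps13c-cKO and 0.720 ± 0.298 CPM in WT mice (SD, n = 6 each; log2 fold change 2.77 ± 0.23 SE, edgeR adjusted p = 3.9e-08). Lsp1, Prr33 and Tssc4 near it also rose, by 0.42, 0.36 and 0.49 on the log2 scale. Mrpl48 lay near Ucp2, an uncoupling protein gene of the inner membrane, which rose by 0.51, and Mrpl17 beside Dchs1, which rose by 0.31 (edgeR adjusted p = 4.7e-05 and 0.0132). Aen near Mrpl46 rose by 0.40, and the gene that overlaps Mrpl48, Rab6a, had a log2 fold change of 0.01 ± 0.04 (SE). Of the 23 neighbours of these 4 genes that are not ribosomal protein genes, 14 had values above 0 and 9 below. Past the threshold 8 rose and 0 fell, beside 18.5% of the tested chromosome 7 genes called in either direction and 8.9% lower. The lowest was Klhl25 near Mrpl46 at -0.40 ± 0.15 (SE; edgeR adjusted p = 0.0983), and Det1 near it had -0.19 ± 0.08.

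**Figure D4:**
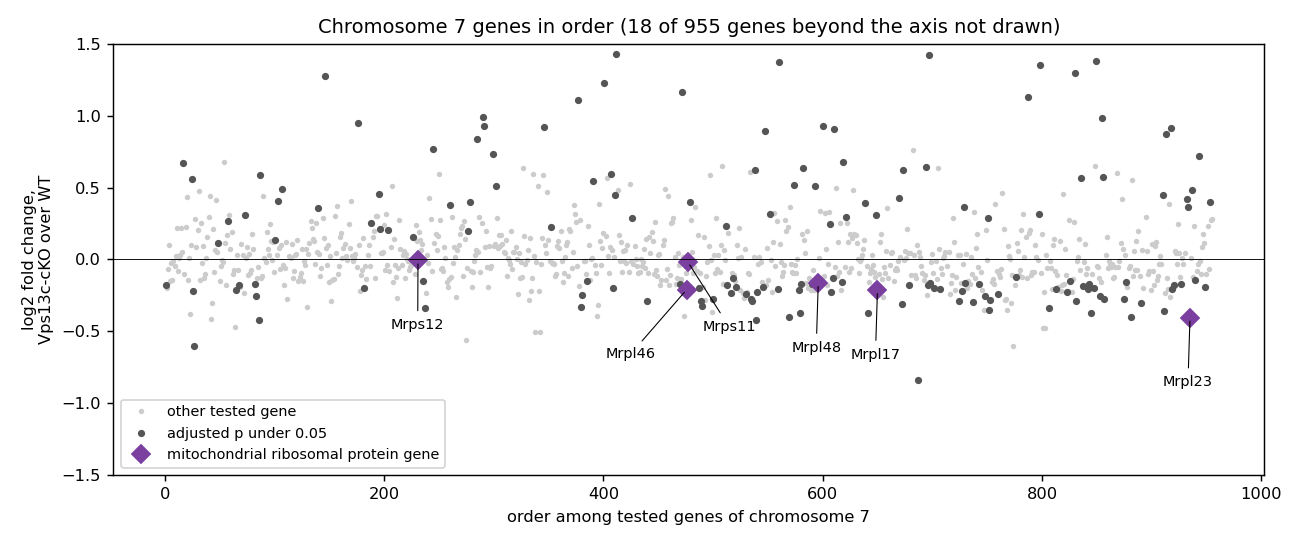
Log2 fold change of the tested genes of chromosome 7 (vertical axis) in their order along the chromosome (horizontal axis, rank), with 18 of 955 genes beyond the axis not drawn. The 6 mitochondrial ribosomal protein genes (diamonds) are spread over the chromosome, Mrps12 and Mrps11 sit at about 0, and genes past the threshold (dark points) lie on both sides of the line.

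Mrpl46 and Mrps11 start from a shared stretch of DNA and are read in opposite directions, so that 1 gene for each subunit shares a promoter region. Their exons overlap by 173 bases, and the strand setting of the counting is not given, so reads in that stretch cannot be told apart. Mrps11 had 7.63, 8.34 and 9.39 CPM (lowest, median and highest) in Vps13c-cKO mice, against 7.15, 8.89 and 9.17 CPM in WT mice. The log2 ratio of Mrpl46 to Mrps11 within a mouse was 1.04 ± 0.13 in Vps13c-cKO and 1.24 ± 0.15 in WT mice (SD, n = 6 each). The difference of -0.20 had a two-sided exact permutation p of 0.0390, and 0.0779 after adjustment over the 2 neighbour pairs compared. It did not pass the threshold. Mrps12, a protein of the decoding centre, has Sars2, the mitochondrial seryl-tRNA synthetase, as its neighbour. These genes also start next to each other and are read in opposite directions, but their exons do not overlap. Their log2 ratio was 0.44 ± 0.19 in Vps13c-cKO and 0.65 ± 0.22 in WT mice (exact permutation p = 0.132, n = 6 each).

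For the 69 genes not called, the intervals show which differences the data still allow. The 95% interval of the log2 fold change lay within ±0.2 for 44 of them, within ±0.3 for 59 and within ±0.4 for 66. The largest value among them was that of Mrpl43, a low-expressed large-subunit gene, at 0.23 ± 0.12 (SE; edgeR adjusted p = 0.25), and its exons share 507 bases with Twnk on the opposite strand. Among these 69, 5 genes above and 3 below 0 had an unadjusted p under 0.05. Over the whole set that was 16 of 77 genes, beside 2947 of 12384 tested genes. Nearest to the threshold was Mrpl13, the large-subunit protein uL13m, with 42.4 ± 1.51 CPM in Vps13c-cKO and 38.2 ± 2.86 CPM in WT mice (SD, n = 6 each; log2 fold change 0.15 ± 0.05 SE, edgeR adjusted p = 0.0617). It passed without WT mouse 4 (adjusted p = 0.0191). Exons of Mrpl13 share 330 bases with Mtbp on the opposite strand. Mrps28 and Mrps26, the next in the small subunit, had log2 fold changes of -0.17 ± 0.07 and 0.17 ± 0.08 (SE; edgeR adjusted p = 0.145 and 0.159).

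Of 14 genes of the set linked to inherited human mitochondrial disease, 1 rose, Mrps23, and 0 fell, beside 10.7% of all tested genes called. Mrpl3, Mrpl44 and Mrps22, in which human mutations have been found with cardiomyopathy, did not pass the threshold. Mrpl3 averaged 100.5 ± 4.26 CPM in Vps13c-cKO and 93.0 ± 4.68 CPM in WT mice (SD, n = 6 each; log2 fold change 0.11 ± 0.04 SE, edgeR adjusted p = 0.0934). The log2 fold changes of Mrpl44 and Mrps22 were 0.01 ± 0.05 and -0.02 ± 0.07 (SE). Mrpl12, of the stalk that binds translation factors, had 0.06 ± 0.05, Mrps14 had 0.00 ± 0.06 and Mrps2 had -0.03 ± 0.05.

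Levels within the set differed far more than genotypes did. Per kilobase of transcript, the most abundant large-subunit gene was Mrpl42 at 317 CPM per kb over all mice, followed by Mrpl30 at 141 and Mrpl12 at 53.7. In the small subunit Mrps21 led with 125 CPM per kb, then Mrps23 with 89.3 and Mrps36 with 68.9. At the low end were Mrpl57 and Mrpl43 with 3.78 and 4.66 CPM per kb, and Mrps26 and Mrps18c with 3.14 and 3.19. The medians were 24.4 CPM per kb for the large and 15.3 for the small subunit. These levels used the median length of annotated coding transcripts, and Mrpl42, Mrpl30, Mrps21, Mrps36 and Mrps26 have near-identical copies elsewhere in the genome, so their order is approximate. The 3 paralogs of the S18 protein, of which each ribosome can hold several at separate places, were at 36.8 ± 2.21 (Mrps18a), 9.90 ± 1.01 (Mrps18b) and 2.08 ± 0.495 CPM (Mrps18c) in Vps13c-cKO mice. In WT mice they were at 35.1 ± 1.85, 9.32 ± 0.943 and 1.99 ± 0.336 CPM (SD, n = 6 each), and none differed past the threshold.

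The wider machinery of mitochondrial translation gave 5 falls and 0 rises among 73 tested genes, which is 6.85% beside 10.7% of all tested genes called and 5.1% lower. Among ribosomal proteins with other names, 0 of 5 tested genes rose and 1 fell. The one that fell was Ndufab1 on chromosome 7, the mitochondrial acyl carrier protein, which is foremost a subunit of complex I and is found on the ribosome during assembly. It averaged 44.5 ± 2.72 CPM in Vps13c-cKO and 54.6 ± 2.16 CPM in WT mice (SD, n = 6 each; log2 fold change -0.30 ± 0.05 SE, edgeR adjusted p = 0.00019). Dap3 and Ptcd3, small-subunit proteins, had log2 fold changes of -0.02 ± 0.04 and 0.00 ± 0.03 (SE). Of 30 tested genes for ribosome assembly and rRNA processing, 0 rose and 1 fell, Nsun4, an rRNA methyltransferase (log2 fold change -0.21 ± 0.06 SE, adjusted p = 0.0219).

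A list of 18 tested translation factors and of proteins that bind mitochondrial messenger RNA or insert and assemble its products had 0 rises and 2 falls, with a median log2 fold change of -0.10, beside 2.8e-05 over all tested genes. Tufm, the elongation factor that brings charged tRNA to the ribosome, lies on chromosome 7 and had 141 ± 2.28 CPM in Vps13c-cKO and 167 ± 8.72 CPM in WT mice (SD, n = 6 each; log2 fold change -0.24 ± 0.04 SE, edgeR adjusted p = 0.00017). Lrpprc, which keeps mitochondrial messenger RNA stable, had 229 ± 9.82 CPM in Vps13c-cKO and 251 ± 13.1 CPM in WT mice (log2 fold change -0.13 ± 0.04 SE, adjusted p = 0.0403). The summed level of that list was 1127 to 1173 CPM in Vps13c-cKO and 1168 to 1255 CPM in WT mice. Of 20 mitochondrial tRNA synthetases and amidotransferase subunits 0 rose and 1 fell, Hars2, at a log2 fold change of -0.22 ± 0.05 (edgeR adjusted p = 0.00692). Without WT mouse 4 Iars2 was also lower (adjusted p = 0.0452). Of 21 genes of mitochondrial transcription, DNA copying and RNA decay 0 passed in either direction, beside 10.7% of all tested genes called. Tfam and Polrmt had log2 fold changes of -0.04 ± 0.05 and 0.06 ± 0.07 (SE).

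Of 12 tested protein-coding genes of the mitochondrial genome 0 passed in either direction, beside 10.7% of all tested genes called. Their median log2 fold change was 0.06. The share of all counts taken by every gene with an mt- symbol, coding or not, was 31.2% ± 0.606 in Vps13c-cKO and 30.1% ± 0.761 in WT mice (SD, n = 6 each). The groups overlapped through WT mouse 4. Without that mouse the WT share was 29.8% ± 0.449 (n = 5) with a highest value of 30.4%, below the lowest Vps13c-cKO value of 30.6%. In the fit without it 2 of the 12 protein-coding genes were called higher, beside 11.2% of all genes tested in that fit called in either direction. These were mt-Nd4 and mt-Cytb, with log2 fold changes of 0.13 ± 0.03 and 0.09 ± 0.03 (SE; edgeR adjusted p = 0.0158 and 0.0244).

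**Figure D5:**
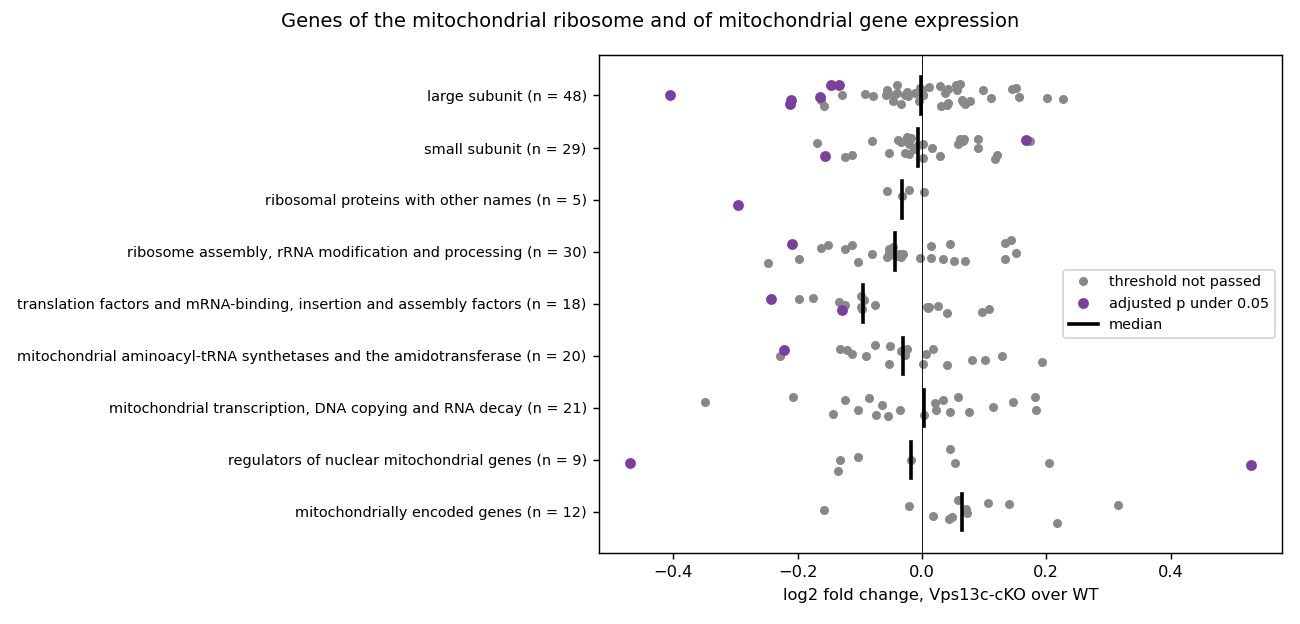
Log2 fold change in Vps13c-cKO over WT ventricles (horizontal axis) of each tested gene of both subunits and of 7 related gene lists, with a vertical bar at the median. Purple points passed an adjusted p of 0.05; among the related lists the 5 falls outside the regulators lie between -0.30 and -0.13, and the regulators hold Ppargc1a at -0.47 and Myc at 0.53.

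Among 9 regulators of nuclear mitochondrial genes, 1 rose and 1 fell, beside 10.7% of all tested genes called (5.65% higher and 5.1% lower). Ppargc1a, the coactivator PGC-1alpha that drives mitochondrial biogenesis, averaged 153 ± 12.4 CPM in Vps13c-cKO and 212 ± 28.8 CPM in WT mice (SD, n = 6 each; log2 fold change -0.47 ± 0.07 SE, edgeR adjusted p = 0.00013). Every Vps13c-cKO mouse, at 164 CPM or less, was below every WT mouse, at 187 CPM or more. Myc, a transcription factor of growth, averaged 4.86 ± 0.688 CPM in Vps13c-cKO and 3.36 ± 0.412 CPM in WT mice (log2 fold change 0.53 ± 0.13 SE, adjusted p = 0.0091). Nrf1, Gabpa and Yy1, which bind promoters of mitochondrial protein genes, had log2 fold changes of 0.05 ± 0.08, -0.13 ± 0.04 and 0.04 ± 0.04 (SE), with Gabpa just outside the threshold (adjusted p = 0.0571, and 0.0424 without WT mouse 4).

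As these 3 factors are known to bind promoters of this kind, their letters were searched on both strands of the RefSeq promoters (build GRCm38.p6, 250 bases before to 50 after the start). Of the 77 genes 68 matched, with 74 promoters. The NRF1 motif (GCGC, any base, TGCGC) was in 17.6% of them, beside 9.65% of the promoters of tested genes and 4.60% of all promoters. The ETS motif CCGGAAG, which GABPA reads, was in 33.8%, beside 16.8% and 8.86%. The YY1 motif AANATGGC was in 28.4%, beside 8.05% and 6.05%. At least 1 of the 3 was in 62.2% of the set's promoters, in 29.9% of those of tested genes and in 17.4% of all. Of the 10 promoters of 7 called genes 5 held at least 1, and of the 64 promoters of uncalled genes 41. Counted by gene, 5 of 7 called and 41 of 61 uncalled genes had a match. A match is a run of letters, not evidence of binding, and these shares were not tested.

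Mrpl23 and Mrpl17, the lowest of the set by log2 fold change, show a promoter without and one with such a match. The stretches below run from 150 to 31 bases before the RefSeq start, on the strand of the gene, at chr7:142532882-142533001 (plus strand) for Mrpl23 and chr7:105811118-105811237 (minus strand) for Mrpl17 in GRCm38.p6. Capitals mark the NRF1 motif, read on the reverse strand from 49 to 40 bases before the start of Mrpl17. An ETS match of Mrpl17 lies further upstream, from 237 to 231 bases before the start. None of the 3 motifs is in the whole promoter of Mrpl23.
Mrpl23: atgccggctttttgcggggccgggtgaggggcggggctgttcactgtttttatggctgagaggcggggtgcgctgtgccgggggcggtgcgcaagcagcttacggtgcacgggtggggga
Mrpl17: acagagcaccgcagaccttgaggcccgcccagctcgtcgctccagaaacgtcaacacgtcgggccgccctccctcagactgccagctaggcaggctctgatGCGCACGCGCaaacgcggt
Both genes were called lower, and a link between a match and the change was not tested.

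Some markers of other cell types were also called, beside 10.7% of all tested genes (5.65% higher and 5.1% lower). Of 8 fibroblast markers 5 rose and 0 fell, with a summed level of 1883 to 2105 CPM in Vps13c-cKO and 1626 to 1908 CPM in WT mice, and of 7 macrophage markers 2 rose and 0 fell (268 to 317 CPM in Vps13c-cKO and 214 to 290 CPM in WT mice). Of 12 cardiomyocyte markers 1 rose and 3 fell, and of 7 endothelial markers 0 rose and 1 fell (746 to 778 CPM in Vps13c-cKO and 743 to 869 CPM in WT mice). Of 5 tested smooth muscle and pericyte markers 1 rose and 2 fell (1032 to 1096 CPM in Vps13c-cKO and 1106 to 1327 CPM in WT mice), and of 5 erythroid markers 0 passed. Of 2 tested atrial markers 1 rose and 0 fell. Nppa, which stressed ventricle also expresses, rose by 2.12 ± 0.21 on the log2 scale (SE; edgeR adjusted p = 5.3e-07), and 2.36 without WT mouse 4. The other had a value below 0 and was not called, and the median log2 fold change of the 2 was -0.044. Without WT mouse 4 that median was 1.36. Without WT mouse 4, 3 macrophage markers rose and 0 smooth muscle and pericyte markers did, beside 11.2% of all genes called in that fit. No marker of any list was at 0 in all mice, although 0 of the lymphocyte, neutrophil and adipocyte markers passed the filter on low counts. The part of these shifts in the values of the ribosomal protein genes was not tested.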

How the data were processed

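Group and replicate came from the sample titles. The authors deposited read counts per gene, not normalized. Per the submitters' processing notes, fastp 0.22.0, HISAT2 2.1.0, HTSeq 0.9.1 and GRCm39 were used. The annotation release and strandedness of the counting are not given. Names came from GENCODE M21 (GRCm38), which named 21851 of 21959 IDs. Its models showed 20 genes of the set overlapping a coding gene on the opposite strand, and 19 with a copy of at least 95% identity over 200 bases (blastn). How the counting treated reads that fit both a gene and its copy is not given.

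Genes kept by filterByExpr were tested with edgeR 4.0.16 (R 4.3.3, two-sided quasi-likelihood test, TMM factors, Benjamini-Hochberg) and called at an adjusted p under 0.05. CPM use TMM-scaled library sizes. On simulated data the fit recovered 58% of 1.25-fold and 86% of 1.5-fold changes, with 9 false calls among 177. Changes under 1.25-fold were not simulated. Gene names in the text follow a rule: called genes, those with the smallest p and the highest and lowest levels per length of each subunit, paralogs, neighbour pairs and disease genes. Mrpl13 was chosen after its values were seen. The genes and lists were chosen with earlier results of these data known. Alternatives were other scalings and filters, DESeq2 1.42.0, limma-voom (limma 3.58.1), sva 3.50.0, a replicate block, leaving out each mouse and other choices of genes. PCR reads without molecular identifiers are not independent molecules, and no batch is given.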

Additional observations from a re-analysis of the deposited data

Results flagged for a closer look

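In 62 groups of 6 mice, 56 of named genes and 6 of the subunit sums and their ratio, a mouse standing apart from the others was searched for, and 3 were found. By chance this happens in about 1 of 20 groups. Mrps2 had 31.7 CPM in Vps13c-cKO mouse 2, with 27.6 to 28.8 CPM in the other Vps13c-cKO mice. Mrpl23 had 23.8 CPM in WT mouse 3, with 26.3 to 27.7 CPM in the other WT mice, and Mrpl12 had 57.2 CPM in the same mouse, with 68.2 to 74.3 CPM in the others. For Mrpl23 that mouse was the WT mouse nearest to the Vps13c-cKO mice.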

How the results depend on the processing

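Under upper-quartile or DESeq2 size factors, robust empirical Bayes, no filter, DESeq2, limma-voom with and without sample weights, 1 surrogate variable and the fit without mitochondrially encoded genes, 1 gene was called higher and 7 lower. With a minimum mean of 5 CPM 2 were called higher, the second being Mrpl13 (adjusted p = 0.0472). Leaving out 1 mouse gave 1 to 2 genes higher and 2 to 5 lower, and 1 to 4 called in the large subunit, of them 1 to 4 lower. Replicate numbers did not pair the mice, as same-numbered mice correlated at -0.04 to 0.06 in their deviations. With the replicate block 4 genes were lower, 3 of them in the large subunit, and Mrpl37, Mrpl39 and Mrpl48 missed the threshold (adjusted p = 0.0570, 0.0680 and 0.0518). Without genes that overlap another on the opposite strand 5 were lower, and without chromosome 7 genes 3, 2 of them in the large subunit. The 8 called genes kept their direction in all of these settings, and the ratio of large to small, Vps13c-cKO over WT, stayed between 0.979 and 0.993 (0.984 as reported). The cause of lost calls was not tested. Depth limits the low genes most, with a standard error of 0.18 on the log2 scale for Mrps18c.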
